A study of Mus musculus with 29 samples.

Results

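HLF-HA was detected at 2635 sites in NIH-3T3 cells, an established mouse fibroblast line, and 42.0% of these sites carried in their central 200 bp a pair of basic leucine zipper (bZIP) half-sites, against 5.20% of windows 5 kb downstream. The members described here are all peaks of the single list made for HLF-HA, 2635 of 304922 peaks (0.864%) in 28 lists. These lists cover 24 constructs, 20 with 1 list and 4 with 2, and HLF-HA ranked 16 of 24 by number of peaks. Each construct is a transcription factor or a mutant of one, carrying an HA epitope tag (HLF bore 3 copies at its C terminus), delivered by lentivirus into cells that hold the rtTA3G activator, and switched on overnight with 500 ng/ml doxycycline. The cells were fixed with 1% formaldehyde and at least 10000000 were taken for chromatin immunoprecipitation with an anti-HA antibody. The construct SOX2-YPET OCT4-HA carried both named factors, and the tag was on OCT4. All constructs share the line, the activator, the doxycycline and the antibody, and an input label without a list was not analysed here. The antibody sees the induced, tagged protein and not any HLF of the cell itself, and the labels do not say whether a line is a single clone. There was 1 list for HLF-HA, so no value below has a replicate, intervals are exact Clopper-Pearson 95% intervals that cover counting error over peaks, and the depth behind the peaks is unknown. Peak lists hold no expression values, so the fibroblast label could not be checked against markers.

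HLF (hepatic leukaemia factor), DBP and TEF form the PAR family of bZIP factors, which bind DNA as dimers, each subunit reading one side of a short palindrome called the D-box. DBP, TEF and HLF are known as outputs of the circadian clock in liver, kidney and brain, where they drive detoxification and metabolic genes, and a fusion of TCF3 with HLF drives a rare childhood leukaemia. NFIL3, a related bZIP repressor, binds the same D-box. The C/EBP factors read a similar element with a different inner base, and the AP-1 dimers of FOS and JUN proteins, abundant in fibroblasts, read TGACTCA.

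The windows that follow were printed because they hold the paired bZIP element described next, first at genes of the circadian clock and of the PAR bZIP family. Each is the plus strand of the mouse genome GRCm38 (RefSeq sequence), and capitals mark the pair of half-sites.
Per1, chr11:69098914-69098943: agggcctggcaTTATGCAAcccgcctccca
Nr1d1, chr11:98774054-98774113: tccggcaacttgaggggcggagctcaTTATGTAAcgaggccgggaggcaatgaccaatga
Nr1d2, chr14:18238577-18238636: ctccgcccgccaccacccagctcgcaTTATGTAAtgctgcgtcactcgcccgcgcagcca
Ciart, chr3:95882869-95882928: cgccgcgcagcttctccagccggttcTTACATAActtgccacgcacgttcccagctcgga
Bhlhe40, chr6:108659469-108659528: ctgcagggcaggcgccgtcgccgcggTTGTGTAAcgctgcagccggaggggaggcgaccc
Nfil3 promoter, chr13:52980553-52980612: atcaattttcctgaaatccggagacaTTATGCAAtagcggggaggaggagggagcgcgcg
Nfil3 upstream, chr13:53001763-53001822: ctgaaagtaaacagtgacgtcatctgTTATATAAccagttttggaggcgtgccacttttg

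A second set comes from peaks found in no other list that hold a D-box. First are the 3 whose nearest start belongs to a gene of the lists described here. These starts, of Ccnd3, Bcl2 and Cdk6, lay 23.6, 222 and 119 kb from the peak midpoints. The widest of the other peaks follow. Capitals mark the D-box.
Ccnd3 intron, chr17:47528820-47528879: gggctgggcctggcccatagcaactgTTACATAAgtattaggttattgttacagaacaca
Bcl2, between genes, chr1:106490730-106490789: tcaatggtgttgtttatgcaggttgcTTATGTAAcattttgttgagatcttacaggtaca
Cdk6, between genes, chr5:3222687-3222746: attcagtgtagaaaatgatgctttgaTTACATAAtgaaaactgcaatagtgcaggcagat
Adam22 intron, chr5:8312395-8312454: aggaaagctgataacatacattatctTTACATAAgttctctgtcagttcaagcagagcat
Cdk14, noncoding exon, chr5:5139311-5139370: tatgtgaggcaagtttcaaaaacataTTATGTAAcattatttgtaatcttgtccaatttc
Opcml intron, chr9:27802472-27802531: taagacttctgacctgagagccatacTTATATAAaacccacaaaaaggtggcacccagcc
Ank2 intron, chr3:127107007-127107066: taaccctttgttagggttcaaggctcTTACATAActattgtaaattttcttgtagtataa
In this set the site lay between 5 bp (Ccnd3) and 80 bp (Bcl2) from the midpoint of its peak, and the peaks were between 181 bp (Cdk6) and 326 bp (Adam22) wide.

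The D-box was counted as TTATGTAA, TTACGTAA or TTATATAA on either strand in the central 200 bp of each peak. It was present in 283 HLF-HA peaks (10.7%, interval 9.58 to 11.99), in 41 of 2344 windows 5 kb downstream that touch no peak of any list (1.75%) and in 44 of 2335 such windows upstream (1.88%). The form TTATGTAA occurred in 188 peaks (7.13%), TTATATAA in 80 (3.04%) and the palindrome TTACGTAA in 17 (0.645%). These D-boxes are members of a larger grid: the 4 half-sites that read TT, then A or G, then T or C, each joined to the reverse complement of another or of itself, give 10 distinct pairs, which were taken after the most frequent 8-letter words had been seen, so they are a description with no test. At least 1 of the 10 pairs was present in 1106 peaks (42.0%, interval 40.1 to 43.9), against 5.20% of downstream and 5.35% of upstream windows. A single pair was found in 1012 peaks, 89 held 2 and 5 held 3 or more.

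The most frequent pair was TTATGCAA, which joins a PAR-type and a C/EBP-type half-site and is the form printed above for Per1 and for the Nfil3 promoter. It occurred in 270 peaks (10.2%) and in 0.427% of the 4679 flanking windows, 23.97 times as often in peaks. The other frequent pairs were TTACACAA in 237 peaks (8.99%, 10.5 times the flanks), the D-box TTATGTAA (7.10 times), TTATACAA in 158 (6.00%, 6.68 times) and TTGCACAA in 152 (5.77%, 9.31 times). The rarer TTGCGTAA was in 52 peaks and the C/EBP palindrome TTGCGCAA in 14. Per occurrence in the genome these rare words stood highest: 54 of 5650 genomic TTGCGTAA (95.6 per 10000) and 16 of 2131 TTGCGCAA (75.1 per 10000) lay inside an HLF-HA peak, against 31.0 per 10000 of TTATGCAA, 15.9 of TTATGTAA and 6.93 of TTATATAA. The palindrome TTGTACAA was the exception of the grid, with 17 peaks (0.645%) against 0.684% of flanks, so that 9 of the 10 pairs were more frequent in peaks than beside them. The words differ in base composition, and the part of composition in the per-occurrence order was not tested. Within windows of 35 to 45% GC, half-site pairs were in 44.4% of 869 peaks and 5.59% of 2039 flanks, and within 45 to 55% GC in 39.7% of 1426 peaks and 3.23% of 1765 flanks.

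The other constructs had lower shares. For the D-box, peak minus control was 8.99 percentage points for HLF-HA, 2.29 for MAX-HA, which came next, and -0.235 for the median of the 23 others. All 23 others lay below HLF-HA (exact permutation test over constructs, one-sided, p = 0.0417, the smallest that 1 construct against 23 can give; Benjamini-Hochberg p = 0.125 over the 3 measures compared across constructs). The D-box forms and this test were chosen with earlier results of these data known. The half-site pairs were in 10.1% of MAX-HA peaks, 9.91% of CDX2-HA peaks and 8.27% of FOXA1-HA peaks, and in 1.43% of TEAD1-HA peaks. The pairs were taken from words of HLF-HA peaks, so a higher share where another list overlaps HLF-HA is no independent result. Among the peaks of DLX6-HA, the pairs were in 27.0% of those that overlapped HLF-HA and 6.26% of the rest, for SOX2-HA in 24.4% and 6.00%, and for BHLHB8-HA in 17.9% and 2.78%. The shares ran the other way in the small lists of OCT4-HA (5.33% and 6.82%) and THAP4-HA (2.86% and 4.35%). These rested on few peaks: 7 OCT4-HA peaks held a pair, 4 of them among the 75 that overlapped HLF-HA. For THAP4-HA 2 held a pair, 1 of them among the 35 that overlapped.

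**Figure D1:**
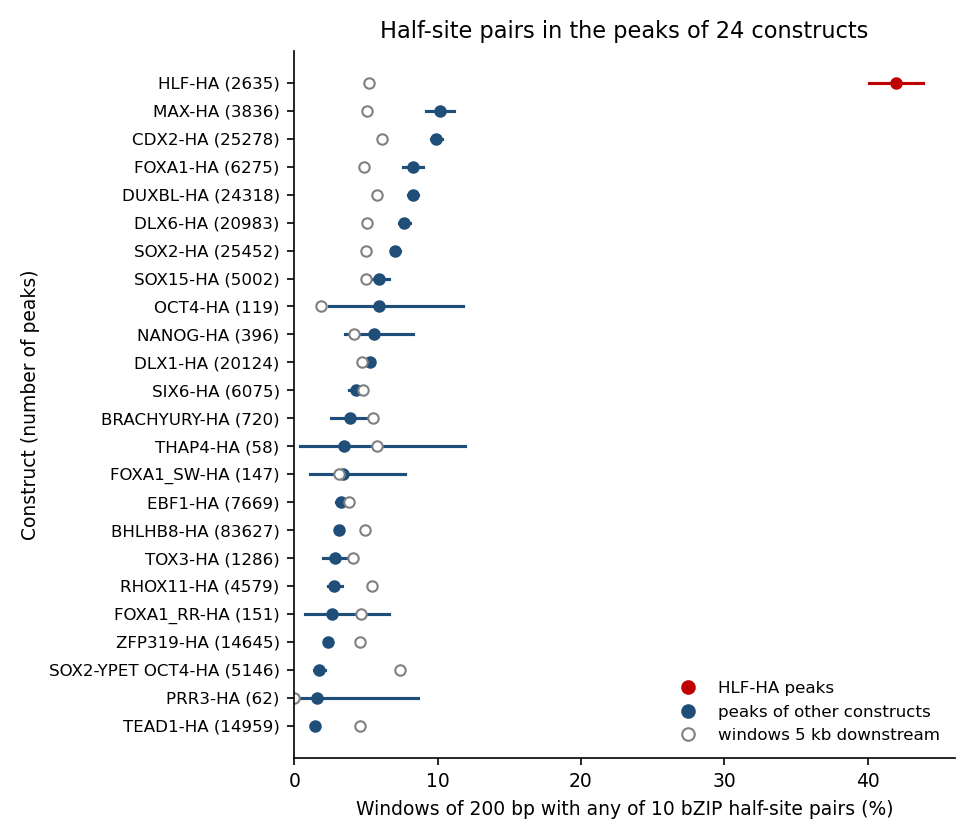
Share of 200-bp windows at peak midpoints with any of the 10 half-site pairs (filled points, lines show 95% exact intervals over peaks) and in windows 5 kb downstream (open points) for 24 constructs, with the number of peaks in brackets. HLF-HA stands at 42.0%, and the next construct, MAX-HA, at 10.1%. The pairs were chosen after the frequent words of HLF-HA peaks had been seen.

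The pairs were concentrated at the peak midpoints. Among peaks in no other list, 133 pairs lay within 50 bp of the midpoint, a rate of 3.96 per 1000 peaks per bp, against 0.324 at 500 to 1000 bp. In shared peaks the rates were 3.78 and 0.264. AP-1 sites formed a lower and broader summit, at 0.804 per 1000 peaks per bp within 50 bp in peaks of no other list and 1.54 in shared peaks, over 0.202 and 0.208 farther out. Of the half-site pairs within 200 bp of the midpoint of shared peaks, 74.1% (interval 71.5 to 76.6) were within 50 bp, and of the AP-1 sites 36.8% (33.7 to 39.9).

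**Figure D2:**
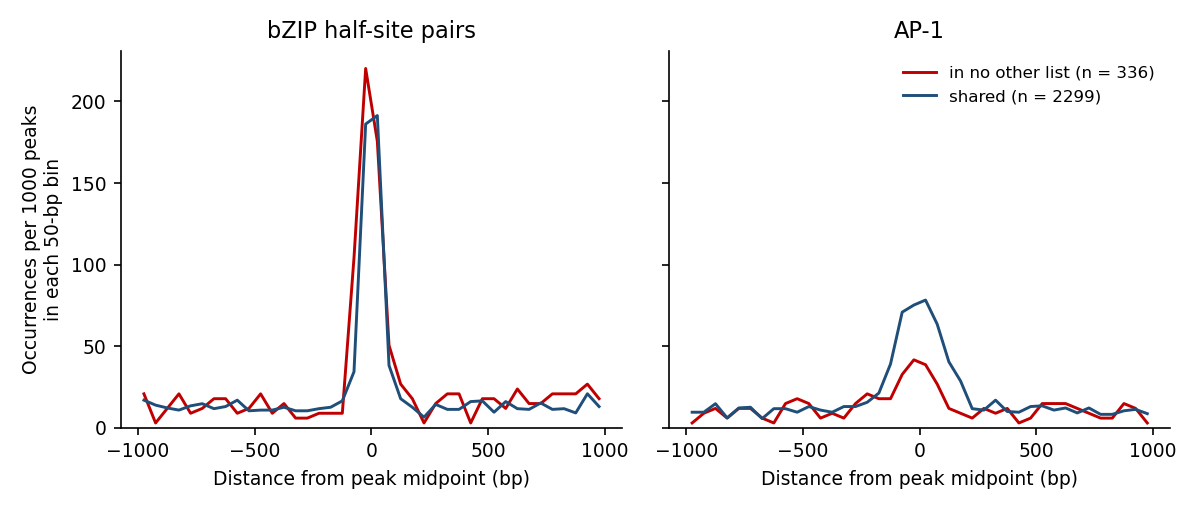
Occurrences of half-site pairs (left) and of AP-1 (right) per 1000 HLF-HA peaks in 50-bp bins, against the distance from the peak midpoint in bp, for the 336 peaks in no other list and the 2299 shared peaks. Half-site pairs rise steeply at the midpoint in both sets, and AP-1 rises less and over a wider span, more so in shared peaks.

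AP-1 was the other frequent element. TGACTCA was present in 627 HLF-HA peaks (23.8%, interval 22.2 to 25.5), against 2.56% of downstream and 2.96% of upstream windows. A half-site pair and AP-1 stood together in 281 peaks, a pair alone in 825, AP-1 alone in 346 and neither in 1183 (44.9%). AP-1 was present in 25.4% of the peaks with a pair (22.9 to 28.1) and in 22.6% of those without (20.6 to 24.8), and these intervals overlapped. Among the 336 peaks in no other list the shares were 19.2% (13.4 to 26.3) and 7.78% (4.32 to 12.7), with intervals that did not overlap. AP-1 was not particular to HLF-HA: the share was 28.6% in SOX2-HA, 27.2% in DLX1-HA and 23.6% in MAX-HA.

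Of the 2635 peaks, 336 (12.8%, interval 11.5 to 14.1) overlapped no peak of any other construct by even 1 bp. This share was 11.7% for the median of the other constructs, of which 10 of 23 were higher (exact permutation test over constructs, two-sided, p = 0.917, with 0.0833 the smallest possible). The other 2299 peaks divided into 1153 shared with 1 to 4 constructs, 923 with 5 to 9 and 223 with 10 or more, and 3 peaks overlapped all 23. The number in no other list depended on what counts as overlap: it was 756 when a reciprocal overlap of 50% was required, and 15 of the 567 peaks at least 300 bp wide were in no other list.

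The 336 peaks set apart held the D-box more often and AP-1 less often than the shared peaks. The D-box was in 58 of 336 (17.3%, interval 13.4 to 21.7) and in 225 of 2299 shared peaks (9.79%, 8.60 to 11.1), a difference of 7.48 points (Fisher's exact test over peaks, two-sided, adjusted p = 0.000146 over 3 comparisons). AP-1 was in 44 (13.1%) and in 583 (25.4%), a difference of -12.3 points (Fisher's exact test, adjusted p = 6.97e-07). With the 15 peaks of at least 300 bp in no other list, neither difference passed the test. Peaks are not independent samples, and these tests say nothing of how a second HLF-HA library would differ. The motifs and tests were also chosen with earlier results of these data known. The peaks in no other list were also narrower (median 194.5 bp against 238 bp) and more often soft-masked as repeats over most of their length (15.8% against 8.09%), and the part of these features was not tested. At 35 to 45% GC the D-box shares were 24.6% of 130 peaks in no other list and 11.5% of 739 shared peaks, at 45 to 55% GC 11.7% of 180 and 8.51% of 1246, and above 55% GC, in the other direction, 8.70% of 23 and 10.8% of 297.

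The wider set of half-site pairs followed sharing differently. A pair was in 156 peaks of no other list (46.4%, interval 41.0 to 51.9), in 51.9% of those shared with 1 to 4 constructs (48.9 to 54.8), in 34.5% with 5 to 9 and in 15.2% with 10 or more (10.8 to 20.6). AP-1 was in 13.1% of peaks of no other list, 22.7% with 1 to 4 constructs, 31.9% with 5 to 9 and 12.1% with 10 or more. Of the 223 most shared peaks, 166 (74.4%) held neither element.

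**Figure D3:**
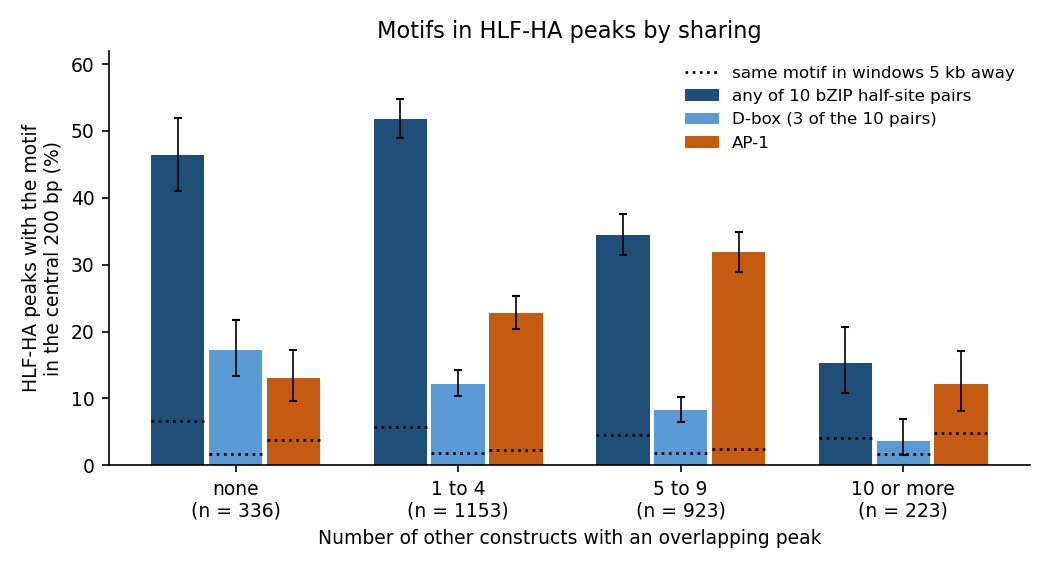
Share of HLF-HA peaks (bars, 95% exact intervals over peaks) with any of the 10 half-site pairs, a D-box or AP-1 in the central 200 bp, by the number of other constructs with an overlapping peak. Dotted lines give the same motif in windows 5 kb to either side. D-box shares fall from 17.3% to 3.59% with sharing, while AP-1 is highest, at 31.9%, in peaks shared with 5 to 9 constructs.

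BHLHB8-HA, a bHLH factor with the largest number of peaks of the series, overlapped most HLF-HA peaks: 1852 (70.3%, interval 68.5 to 72.0), which were 2.21% of its own 83627 peaks. SOX2-HA followed with 1467 (55.7%, and 5.76% of its own), DLX6-HA with 1447 (54.9%, and 6.90%) and DLX1-HA with 1233 (46.8%, and 6.17%). The order depended on the lists used: with the first BHLHB8-HA list left out SOX2-HA led, and under a reciprocal overlap of 50% DLX6-HA led with 807 peaks (30.6%). TEAD1-HA, with 14959 peaks, overlapped 64 HLF-HA peaks (2.43%), and ZFP319-HA, with 14645, overlapped 198 (7.51%). Of the known genome, peaks of BHLHB8-HA covered 1.37%, SOX2-HA 0.348%, DLX6-HA 0.273% and DLX1-HA 0.251%. Those of TEAD1-HA covered 0.236% and those of ZFP319-HA 0.185%. Lists of at most 151 peaks lay largely within the HLF-HA sites, as in PRR3-HA (83.9% of its 62 peaks), FOXA1_SW-HA (68.0% of 147) and OCT4-HA (63.0% of 119). The share was 45.7% of 396 for NANOG-HA and 31.8% of 720 for BRACHYURY-HA. Few peaks of PRR3-HA, FOXA1_SW-HA and OCT4-HA were in no other list (0%, 5.44% and 2.52%). Of their peaks that overlapped HLF-HA, 1.92%, 4.00% and 5.33% held a half-site pair. A single other construct accounted for 282 peaks, of which 139 were shared with BHLHB8-HA alone, 37 with SOX2-HA alone and 28 with RHOX11-HA alone.

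Elements read by the partner were compared in HLF-HA peaks with and without its overlap. CAGCTG, an E-box read by bHLH factors, was in 15.2% of HLF-HA peaks that overlapped BHLHB8-HA and 7.92% of the others. ACAATG, a SOX element, was in 19.6% and 9.50% with and without SOX2-HA. TGTTTAC, a forkhead element, was in 9.49% and 2.29% with and without FOXA1-HA. The EBF1 palindrome was in 13 of 544 peaks (2.39%) and 3 of 2091 (0.143%). The order was the other way for MAX-HA, whose E-box CACGTG was in 2.09% and 3.87%, and for TEAD1-HA, whose element CATTCC was in 4.69% of 64 peaks and 15.4% of the rest. Half-site pairs were about as frequent with and without DLX6-HA (41.9% and 42.1%), and less frequent with SOX15-HA (25.8% and 47.8%), FOXA1-HA (29.4% and 45.9%) and CDX2-HA (29.0% and 45.2%). AP-1 was in 31.1% of the peaks shared with DLX6-HA and 14.9% of the rest.

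**Figure D4:**
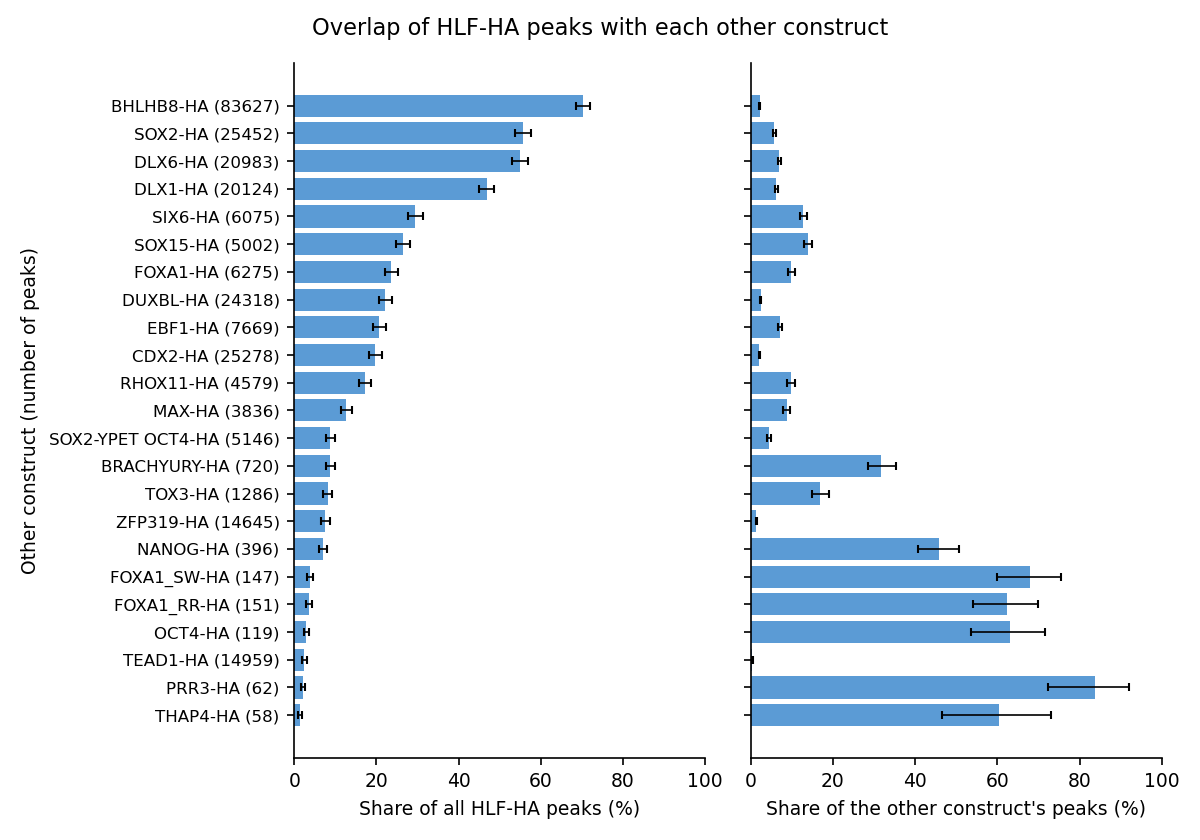
Overlap of HLF-HA peaks with each of the 23 other constructs, as a share of the 2635 HLF-HA peaks (left) and of the other construct's peaks (right), with 95% exact intervals and peak numbers in brackets. BHLHB8-HA covers 70.3% of HLF-HA peaks, which are 2.21% of its own, and PRR3-HA has 83.9% of its 62 peaks at HLF-HA sites.

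Among clock genes, 4 of 22 had an HLF-HA peak midpoint within 1 kb of a protein-coding start (18.2%, interval 5.19 to 40.3): Per1, Per2, Nr1d2 and Ciart. For comparison, 255 of 21829 protein-coding genes had such a peak (1.17%). The count was 3 within 500 bp, without Ciart, and 6 within 2 kb, with Nr1d1 and Bhlhe40 added. These lists were drawn up with earlier results of these data in view, and no test was made. By the same count, BHLHB8-HA had 20 clock genes and 46.8% of all protein-coding genes, TEAD1-HA 12 and 32.1%, DLX1-HA 7 and 13.0%, RHOX11-HA 1 and 11.1%, and FOXA1-HA 3 and 1.73%. SOX2-YPET OCT4-HA, which reached 257 genes, had 0 of the 22.

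The Per1 peak (chromosome 11, 69098744 to 69099095, 352 bp wide) was centred 28 bp upstream of a start of this gene, which encodes a repressor of the clock. It overlapped no peak of any other construct, although BHLHB8-HA, FOXA1-HA, MAX-HA and ZFP319-HA had other peaks within 1 kb of a Per1 start. The peak at Per2, its paralogue, was 396 bp wide and centred 13 bp from the start, held none of the 10 pairs, and was shared with BHLHB8-HA and TEAD1-HA. Nr1d1 and Nr1d2 encode the REV-ERB nuclear receptors, repressors of Arntl. Both had a peak with the D-box TTATGTAA printed above, at 1247 bp downstream of a start in an intron of Nr1d1 and at 408 bp downstream of a start of Nr1d2. The Nr1d1 peak was shared with BHLHB8-HA alone and the Nr1d2 peak with TEAD1-HA alone. Ciart, which encodes a repressor of CLOCK and ARNTL, had a D-box peak 589 bp upstream of its start, shared with BHLHB8-HA alone.

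Bhlhe40, which encodes the repressor DEC1, had a peak 1122 bp upstream of its start with TTGTGTAA, shared with 3 constructs. A second Nr1d1 peak 8.25 kb upstream and a Rorb peak 136 kb upstream held no pair and were shared with 6 and 9 constructs. By nearest start, 7 of 22 clock genes had a peak (31.8%), against 8.37% of all protein-coding genes, and 5 of these genes had a peak with a half-site pair.

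In the PAR bZIP group, Tef and Nfil3 had promoter peaks and Dbp had none. Nfil3, the D-box repressor, had a peak 474 bp downstream of a start with TTATGCAA, shared with 3 constructs, and a peak 20.7 kb upstream with TTATATAA, shared with 4. The 2 Tef peaks lay 122 and 806 bp from starts, were shared with 3 and 7 constructs and held no pair. Hlf itself, on chromosome 11 at 90336536 to 90390895, had 4 peaks of 171 to 228 bp, all in introns and none touching an exon. These 4 lay 11.3 to 45.5 kb from the start, 2 were in no other list, and none held a half-site pair or AP-1.

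**Figure D5:**
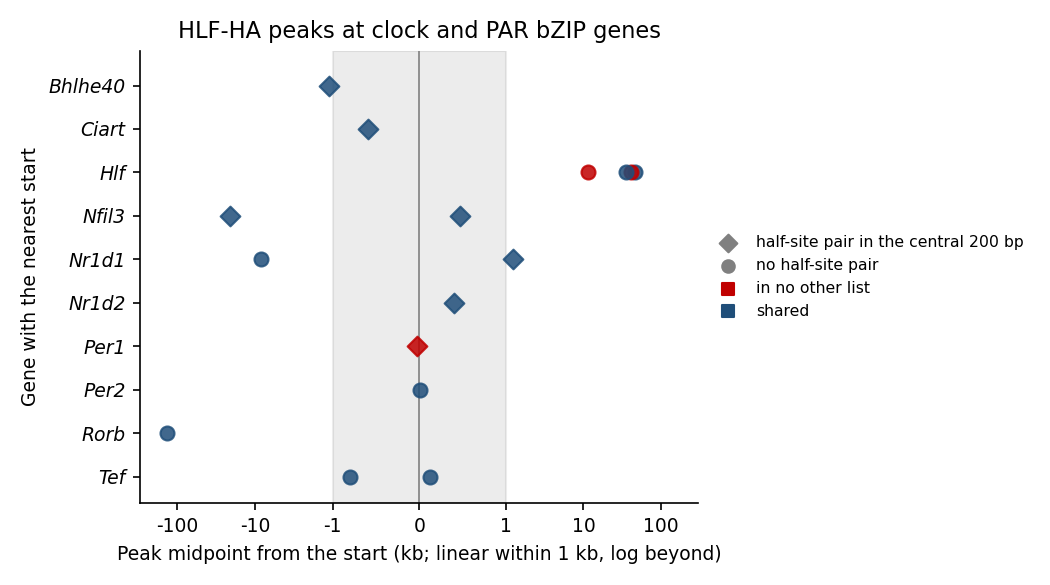
Distance in kb of each HLF-HA peak midpoint from the nearest protein-coding start (negative upstream, linear within 1 kb and log beyond) for clock and PAR bZIP genes. Diamonds hold a half-site pair, circles do not, red marks peaks in no other list, and the grey band marks 1 kb either side of the start. Per1 and Nr1d2 diamonds lie inside the band and the Nr1d1 diamond just outside it.

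None of 20 metabolic genes that PAR factors are known to drive in liver had a promoter peak (interval 0 to 16.8%), which at a background of 1.17% says nothing particular about them, and by nearest start 2 had a peak (10.0%, against 8.37% of all genes): Por, encoding the reductase that feeds electrons to cytochromes P450 (14.8 kb upstream of the start, with a half-site pair), and Gpam (141 kb downstream, without). Of 14 genes tied to HLF or the TCF3-HLF fusion in leukaemia and stem cells, Meis1 had a promoter peak, 307 bp wide and 21 bp upstream of the start, with a half-site pair. Bcl2, Mecom, Runx1 and Snai2 of that group had peaks by nearest start, with the nearest peak of each at 12.97 kb for Mecom, 21.2 kb for Snai2 and 281 kb for Runx1. Bcl2 had 3, among them the D-box peak in no other list printed above. Of 7 C/EBP genes only Cebpd had a peak, 71.4 kb downstream of the start with a D-box.

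The remaining groups are given by their counts, to be read against 1.17% of all protein-coding genes at promoters and 8.37% by nearest start. Of 12 AP-1 and ATF3 family genes 1 had a promoter peak, Atf3, a stress-induced bZIP gene, with its peak 12 bp from the start and in no other list, and 4 had a peak by nearest start (33.3%). The Atf3 peak held no half-site pair or AP-1. Fosl2, named after its values were seen, had 3 peaks by nearest start, all with half-site pairs, of which 2 were in no other list. The Fosl2 peaks lay 83.1 and 80.1 kb upstream and 3.79 kb downstream of the start. Of 14 ATF and CREB genes Atf4 had a promoter peak 977 bp downstream of a start, in no other list and with a half-site pair. Of 34 fibroblast and matrix genes 1 had a promoter peak (Sparc) and 11 had a peak by nearest start (32.4%, interval 17.4 to 50.5). None of 13 annotated Hippo pathway target genes had a peak of either kind, and none of 17 amino acid response and ER stress genes had one at the promoter. Among cell cycle and p53 genes Cdk4 and Cdk6 had promoter peaks, 2 of 21, and the Cdk4 peak, 796 bp upstream, was in no other list and held a half-site pair.

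Housekeeping groups, against the same 1.17%, had promoter peaks in 3 of 84 cytosolic ribosomal protein genes (3.57%, interval 0.743 to 10.1: Rpl10a, Rpl41 and Rps2), 3 of 67 replication-dependent histone genes (Hist1h2bh and Hist1h3f, which share a peak, and Hist4h4) and 3 of 89 respiratory chain genes (Cox5b, Ndufb3 and Ndufc2). By nearest start, 15 of the 84 ribosomal protein genes had a peak (17.9%, interval 10.4 to 27.7, against 8.37%), 2 of the 67 histone genes and 7 of the 89 respiratory chain genes (7.87%). Among the 21 genes of the factors expressed in the series, Dlx1 had a promoter peak. A nearest start is an assignment by distance along the chromosome and does not show that a peak acts on that gene.

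Most HLF-HA sites lay away from starts: 241 (9.15%, interval 8.07 to 10.3) within 1 kb, 530 (20.1%) at 1 to 10 kb, 1308 (49.6%) at 10 to 100 kb and 556 (21.1%) beyond, with a median of 25.1 kb. Windows of 1 kb around protein-coding starts cover 2.44% of the known genome. The promoter share was 0.372 points above the median of the other constructs, 11 of 23 of which were higher (exact permutation test, two-sided, p = 1, with 0.0833 the smallest possible). Beyond promoters, 1089 peaks (41.3%) lay in introns, 1146 (43.5%) between genes and 32 (1.21%) in coding exons.

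Promoter peaks carried half-site pairs more often and AP-1 less often than the others. A pair was in 148 of 241 promoter peaks (61.4%, interval 54.9 to 67.6) and 958 of 2394 others (40.0%, 38.0 to 42.0), and AP-1 in 9.54% (6.15 to 14.0) and 25.2% (23.5 to 27.0). Of 134 RefSeq promoter windows (250 bp before to 50 bp after a start) that overlapped an HLF-HA peak, 65 (48.5%, interval 39.8 to 57.3) held a pair, against 5.05% of all 32851 windows, and 17 (12.7%) held a D-box, against 1.59%. The promoter peaks overlapped DLX6-HA (29.5%) and SOX2-HA (22.0%) less often than the other HLF-HA peaks did (57.5% and 59.1%). They overlapped TEAD1-HA more often (15.8% and 1.09%), while BHLHB8-HA covered 71.8% and 70.1%. The lists differ in position themselves. Of all their peaks, 45.3% lay within 1 kb of a start for TEAD1-HA, 14.3% for BHLHB8-HA, 8.08% for DLX6-HA and 4.35% for SOX2-HA. The part of these shares in the contrast was not tested.

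Promoter peaks were 10.4% of those in no other list and 8.96% of the shared ones, a difference of 1.46 points that did not pass Fisher's exact test (adjusted p = 0.417). This comparison rested on the other lists used: without the second BHLHB8-HA list the difference was 5.21 points (Fisher's exact test, adjusted p = 0.00173), and with a reciprocal overlap of 50% it was 8.69 points (adjusted p = 3.56e-11). Peaks, which are not independent samples, were the units here too. These p-values say nothing of variation between libraries. By sharing, 14.4% of peaks with 1 to 4 other constructs were at promoters, 3.47% with 5 to 9 and 3.59% with 10 or more. The 35 promoter peaks in no other list included, besides Per1, those of Srsf2, a splicing factor whose peak is also within 1 kb of Mfsd11 (294 bp wide, 95 bp upstream), Ctsl, a lysosomal protease (278 bp wide, 176 bp downstream), Pgk1, a glycolytic enzyme (with a D-box), and Pemt, which makes phosphatidylcholine, genes chosen after their values were seen. In all, 24 of these 35 (68.6%) held a half-site pair.

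HLF-HA peaks also gathered in dense regions, here runs of 3 or more peaks whose neighbours lay within a fixed linking distance, the widest gap so linked being 12.1 kb. There were 54 such regions with 240 peaks (9.11%). Their content differed: half-site pairs were in 11.7% of these peaks (interval 7.89 to 16.4) and 45.01% of the others (43.0 to 47.0), AP-1 in 4.17% and 25.8%, and the D-box in 1.67% and 11.6%. Overlap with 10 or more other constructs was found for 32.1% of peaks in dense regions and 6.10% outside, and the mean soft-masked share was 27.8% and 14.4%.

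The largest dense region held 16 peaks over 59.5 kb on chromosome 11 (3114459 to 3173928) at Sfi1, a centrosome gene. None of the 16 was in no other list, and all 23 other constructs had peaks there. Of the 8 regions that followed with 8 peaks each, 4 lay near Zfp386 on chromosome 12, near Olfr161 on chromosome 16, at Gm13212 and Zfp990 on chromosome 4, and at Gm21149 on chromosome 5. In these 4, 13 to 19 other constructs had peaks, and in the rest of the 8, 18 to 23 did. A region of another kind, named after its values were seen, lay at Ndufc2 on chromosome 7 (97400157 to 97406617). Of its 5 peaks 4 were in no other list, among them the widest such peak of all, 690 bp. The other constructs with peaks there numbered 2. A half-site pair was in 1 of the 5 peaks and AP-1 in none. A region at Ppp2r5a on chromosome 1 (191376600 to 191381572), also named after its values were seen, had 3 peaks, all in no other list. These held neither element, and 0 other constructs had peaks there.

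By nearest start, Zfp386 led with 40 peaks, spread over 1242 kb, followed by Zfp804b with 35, Gm15319 with 21, Gm5152 with 17, and Sfi1 and Steap1 with 16 each. Then came Gm21119 with 13, Cdk14 with 11, Olfr161 with 10 and Cdk6 with 9. Of the 40 Zfp386 peaks 1 lay within 1 kb of its start. Only starts of protein-coding transcripts were used, so these peaks may lie at genes of other kinds. None of the 40 held a half-site pair, whereas 6 of 11 at Cdk14 did, including the D-box peak in no other list printed above. Zfp804b, Gm5152, Steap1, Cdk14 and Cdk6 lie in 1 stretch of chromosome 5, from 3 to 11 Mb, that held 155 HLF-HA peaks (5.88%) and 1.61% of the peaks of all other lists. Of these 155, 33 (21.3%) were in no other list and 32 (20.6%) held a half-site pair. Chromosome 5 as a whole held 12.3% of HLF-HA peaks, 7.41% of the peaks of all other lists and 5.57% of the summed chromosome length.

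The 5 widest peaks, of 2052 to 1351 bp, were among the most shared. They lay at Rpl7a, Sfi1, Hmgb1, Rpl21 and 4931408C20Rik and overlapped 17 to 23 other constructs. None of these held a half-site pair, a D-box or AP-1. A peak of 1106 bp near Csrp1, named after its values were seen, overlapped only 2 other constructs. The peaks at Rpl7a, Hmgb1 and Rpl21 were over coding exons. The median width of all HLF-HA peaks was 230 bp. The widest D-box peaks in no other list were those at Adam22 (326 bp), Cdk14 (319 bp), Opcml (317 bp) and Ank2 (288 bp), and the next 6, near Icos, Gm7168, Pard3b, Smarca4, Tlcd2 and Dcaf13, were 232 to 250 bp wide. The one near Icos was covered to 98% by soft-masked repeat.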

How the data were processed

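Per the methods of the study, paired-end reads were mapped to the mouse genome build mm10 with STAR 2.5.3a, keeping unique alignments, duplicates were removed with Picard, and peaks were called for each sample with MACS2 2.1.1.20160309. The authors then discarded peaks that overlapped input peaks or ENCODE blacklisted regions. The deposited lists give chromosome, start and end and no score or depth, so every peak weighed the same. Lists of the 4 duplicated constructs were merged.

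Peaks overlapped when they shared at least 1 bp. Starts, exons and introns came from GENCODE vM21 and sequence from GRCm38. Peak midpoints were assigned to the nearest start of a protein-coding transcript. Motifs were sought on both strands of the central 200 bp and of windows 5 kb away that touch no peak. Constructs were compared by exact permutation tests and peak classes by Fisher's exact test with Benjamini-Hochberg adjustment, in Python 3.11.15 with NumPy 2.4.6 and SciPy 1.17.1. The overlap, motif, distance and test functions were tested on simulated data. The members, gene lists, motifs and tests were chosen with earlier results of these data known. Named genes are list genes with a peak at the promoter (for the PAR bZIP, clock, C/EBP and HLF groups also by nearest start), Hlf, and genes at the 5 largest dense regions, the 5 widest peaks, the 10 widest D-box peaks in no other list and the 10 genes with most peaks. A few more, marked in the text, were picked with values in view, as were the 10 half-site pairs. The alternatives tried were other overlap rules, peak widths, windows, promoter distances and linking distances, and leaving out lists of other constructs.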

Additional observations from a re-analysis of the deposited data

How the results depend on the processing

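No paired analysis was possible because HLF-HA has 1 list and the numbers of the duplicated constructs tie no sample to it. Of 88 alternatives, 69 changed neither a sign nor a call and kept counts within 1.5 times, though values moved in some (peaks in no other list 237 with gaps of up to 500 bp allowed and 475 without BHLHB8-HA, promoter share 1.15 points above the median within 2 kb). Of the rest, 12 moved a value, 3 turned its sign, 2 made it pass a test and 2 made it miss one. The number of peaks in no other list was 756 under a reciprocal overlap of 50% and 15 for peaks of at least 300 bp. Leaving out 1 list of a duplicated construct gave 336 to 398. The promoter share against the median of other constructs turned to -0.0801 points within 500 bp, -2.46 with the starts of all transcripts and -0.612 for peaks of at least 300 bp. Its two-sided exact permutation test cannot go below p = 0.0833, so it says nothing of stability. The D-box difference was 7.21 to 9.83 points under its 5 alternatives. The half-site pair difference of 36.8 points, whose alternatives were chosen after seeing the data, moved to 33.0 in the central 100 bp, 41.6 for peaks of at least 300 bp, 39.8 without dense regions and 29.0 without the D-box forms. Peaks in no other list against shared peaks differed in promoter share by 8.69 points under a reciprocal overlap of 50%, by 13.1 points for peaks of at least 300 bp (Fisher's exact test, adjusted p = 0.261) and by 1.02 to 5.21 points with 1 list left out. For peaks of at least 300 bp the D-box difference was 10.2 points (Fisher's exact test, adjusted p = 0.276) and the AP-1 difference -3.91 points (adjusted p = 1), with 15 peaks in no other list, and with 1 list left out they were 7.18 to 7.68 and -12.9 to -10.02 points. The highest overlap was 30.6% (DLX6-HA) under a reciprocal overlap of 50%, 87.3% (BHLHB8-HA) for peaks of at least 300 bp, and 55.7 to 70.3% with 1 list left out. Dense regions numbered 31 when linked within 5 kb and 18 with 5 or more peaks. The cause of these shifts was not tested, and the set of peaks at least 300 bp wide was also smaller, with 567 peaks. Depth is unknown, so a site absent from a list may be a site below its threshold.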
